A study of Mus musculus with 72 samples.

Results

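Livers of male mice under chronic circadian misalignment, collected at clock time 12:00, were compared with livers of control males collected at the same clock time. The members were the 3 misaligned and the 3 control male libraries that the labels place at 12:00, which are 6 of the 72 libraries of the series. Both groups were wild type C57bl6 mice of 8 to 16 weeks, held on a 12:12 h cycle of light and dark with food and water freely available. Both groups ate standard chow until week 1 of the paradigm and a diet with 42% of calories from fat after it, so the controls carried the high-fat diet too. Animals were exsanguinated by perfusion through the heart, and poly(A) RNA of whole liver was sequenced with a stranded kit in paired reads of 150 bp. The labels do not describe the misalignment schedule, nor how clock time relates to the light cycle. The series states biological replicates and gives nothing more on them, so p-values measure the spread between these samples. The remaining libraries cover females, and males at the other 5 clock times. The comparison asks what the liver transcriptome of misaligned males looked like at 1 clock time, in a series on how the 2 sexes respond to misalignment.

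The liver clock is a feedback loop in which BMAL1 (gene Arntl) with CLOCK or NPAS2 activates the period and cryptochrome repressors, the REV-ERB receptors (Nr1d1, Nr1d2) and the PAR bZIP factors (Dbp, Tef, Hlf). Feeding time sets the phase of this loop in liver and drives lipid synthesis. The transcription factor SREBP2 controls the genes of cholesterol synthesis and uptake, and SREBP1c with ChREBP controls those of fatty acid synthesis. CYP7A1, the rate-limiting enzyme of bile acid synthesis, removes cholesterol.

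Counts on the sense strand summed to between 11875741 and 12199260 per library in the 6 livers, and to between 11551524 and 12529963 over all 72. Of 27846 genes in the table, 15066 had enough counts to test. Levels are in CPM, counts scaled by library size with TMM factors, and differences are log2 of misaligned over control with their standard error (SE). The Spearman correlation across genes was 0.9807 to 0.985 between misaligned livers and 0.9868 to 0.9895 between control livers. Between a misaligned and a control liver it was 0.9794 to 0.9872. Misaligned liver 1 correlated at 0.9851 to 0.9872 with the control livers, and at 0.9817 and 0.9807 with misaligned livers 2 and 3. The median standard deviation of log2 levels over all genes tested was 0.233 among the misaligned livers and 0.175 among the control livers, the lowest of the 24 groups of the series. Misaligned liver 1 stood apart from misaligned livers 2 and 3 in its clock genes, as described below, so results that rest on it are given with and without it.

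No gene passed an adjusted p of 0.05 in edgeR's quasi-likelihood test on all 72 libraries, so 0.0% of the 15066 genes tested were called. At an unadjusted p under 0.05 there were 529 genes, or 3.51%, of which 340 (2.26%) were higher and 189 (1.25%) were lower in misaligned livers. DESeq2 and limma-voom on all libraries also called 0 genes. The same fit called 55, 1, 55, 154 and 1993 genes between misaligned and control males at 0, 4, 8, 16 and 20 h. No difference described here passes that test. In 881 genes (5.85%) the 3 misaligned livers all lay above the 3 control livers, and in 946 genes (6.28%) they all lay below. These shares are the background for the counts of genes without overlap given for each group of genes.

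A fit of the 6 libraries alone takes the spread only from these livers. There edgeR called 9 of 13353 genes (0.0674%) at an adjusted p of 0.05, of which 6 (0.0449%) rose and 3 (0.0225%) fell in misaligned livers. Among those that rose were Mvd, Acly, Acaca, Pgd and Pnpla5. Cyp7a1, Hsd17b6 and Gm33543 fell. Mvd decarboxylates mevalonate diphosphate in cholesterol synthesis, Acly makes cytosolic acetyl-CoA from citrate, Acaca makes the malonyl-CoA of fatty acid synthesis, and Pgd yields NADPH in the pentose phosphate pathway. These genes were singled out by this fit after their values were seen.

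Mvd (ENSMUSG00000006517, GRCm38 chr8:122433601-122443422, minus strand) had 12.8, 23.3 and 19.5 CPM in misaligned livers 1, 2 and 3, against 3.47, 4.74 and 4.08 CPM in control livers 1, 2 and 3. Its log2 difference was 2.17 ± 0.23 (SE, edgeR on the 6 libraries, adjusted p = 0.00451). Every misaligned liver was well above every control liver. Acly (ENSMUSG00000020917, chr11:100476353-100528000, minus strand) had 1190, 712 and 901 CPM in misaligned livers and 374, 277 and 276 CPM in control livers. Acly rose by 1.60 ± 0.20 on the log2 scale (SE, edgeR on the 6 libraries, adjusted p = 0.0215), with misaligned liver 1 the highest of the 6.

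Acaca (ENSMUSG00000020532, chr11:84129672-84401651, plus strand) had 316, 246 and 258 CPM in misaligned livers, against 139, 146 and 166 CPM in control livers, a log2 difference of 0.86 ± 0.13 (edgeR on the 6 libraries, adjusted p = 0.0324). Pgd (chr4:149149991-149166771, minus strand) had 137, 112 and 137 CPM in misaligned livers and 79.1, 78.5 and 66.5 CPM in control livers, a log2 difference of 0.78 ± 0.12 (edgeR on the 6 libraries, adjusted p = 0.0492). Neither gene overlapped between groups. Pnpla5, a lipase of the patatin family (chr15:84112356-84123175, minus strand), had 11.6, 6.06 and 13.1 CPM in misaligned livers and 2.64, 2.49 and 1.76 CPM in control livers, with an adjusted p of 0.0321 in the same edgeR fit. Its log2 difference of 2.15 ± 0.30 was close in size to that of Mvd.

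Cyp7a1 (ENSMUSG00000028240, chr4:6265612-6275633, minus strand) had 43.5, 35.8 and 35.5 CPM in misaligned livers, against 88.4, 83.4 and 114 CPM in control livers. It fell by 1.32 ± 0.14 on the log2 scale (SE, edgeR on the 6 libraries, adjusted p = 0.00451). Hsd17b6, a hydroxysteroid dehydrogenase (chr10:127990936-128007611, minus strand), had 48.7, 33.6 and 37.8 CPM in misaligned livers and 78.3, 89.6 and 102 CPM in control livers, with an adjusted p of 0.0184 in the same edgeR fit. Both steroid enzymes lay lower in every misaligned liver than in any control liver. Gm33543 (chr10:95823973-95842930, minus strand) had 6.53, 4.18 and 6.56 CPM in misaligned livers and 15.4, 14.0 and 14.6 CPM in control livers, with an adjusted p of 0.0259 in the same edgeR fit.

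**Figure D1:**
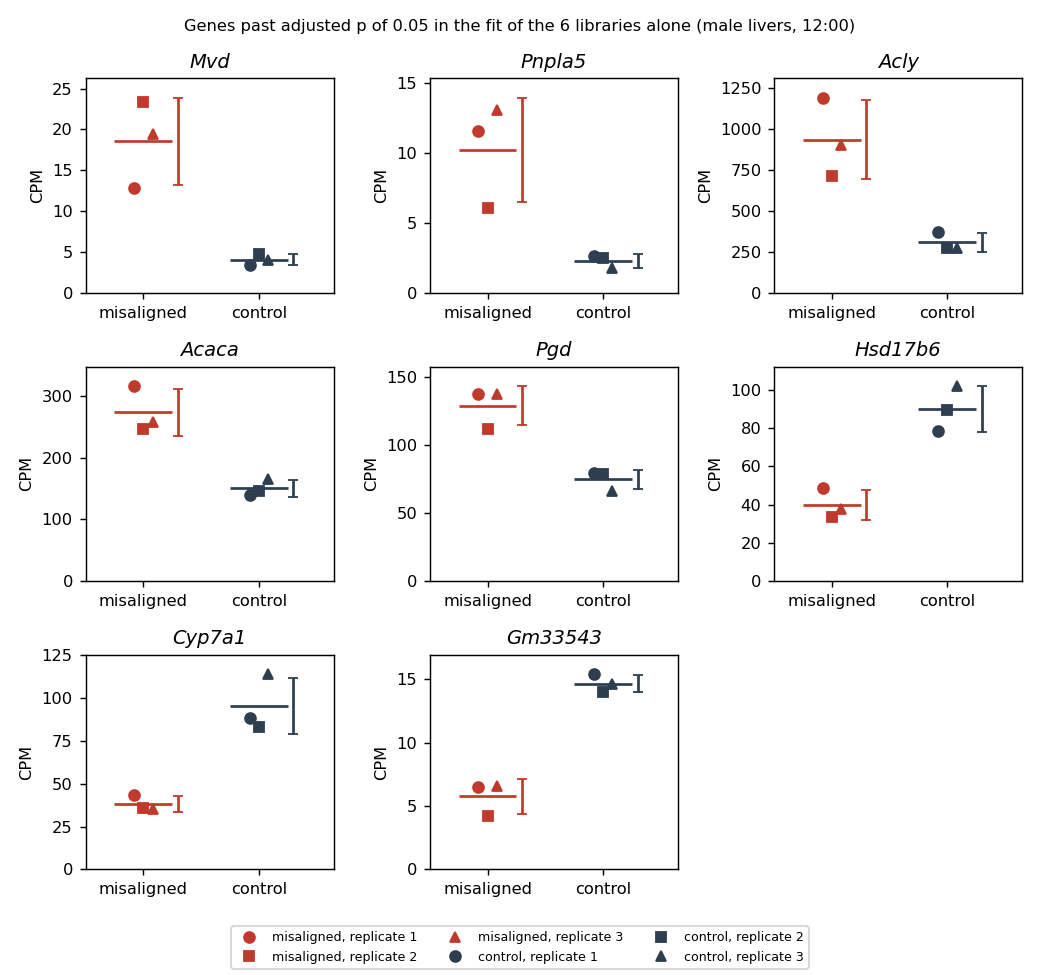
Levels in CPM (linear axes from 0) of 8 of the 9 genes called in the fit of the 6 libraries alone, with misaligned livers left and control livers right. Points are livers with the replicate given by shape, horizontal lines are means, and bars are ± 1 SD (n = 3 each). Mvd sits between 12.8 and 23.3 CPM in misaligned livers and between 3.47 and 4.74 CPM in control livers.

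The calls depended on which libraries gave the spread. Estimated over all 72 libraries, the SE of Mvd was 0.69 in place of 0.23 and that of Cyp7a1 was 0.73 in place of 0.14, and edgeR's adjusted p was 1.0 for each of the 9 genes. Without control liver 3 or without misaligned liver 3 the 6-library fit called 0 genes, without control liver 2 it called 2, without misaligned liver 2 it called 3, and without control liver 1 it called 11. Without misaligned liver 1 it called 60, among them all of the 9. Among the 15 control males of the other clock times, Mvd ranged from 2.61 to 26.7 CPM, Acly from 114 to 2800 CPM and Cyp7a1 from 5.25 to 218 CPM. The misaligned values of all of the 9 genes lay inside the ranges of those 15 controls.

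The proximal promoters of Mvd and of Lss, the lanosterol synthase of the same pathway, are shown because the CCAAT box, bound by NF-Y, a known partner of SREBP factors, stood in most promoters of cholesterol genes. The sequences are the 150 bases before the RefSeq gene start (GRCm38.p6, 5′ to 3′ on the gene's strand), at chr8:122443423-122443572 (minus strand) for Mvd and chr10:76531455-76531604 (plus strand) for Lss. Capitals mark CCAAT on either strand, so ATTGG is the same box read on the opposite strand.
Mvd: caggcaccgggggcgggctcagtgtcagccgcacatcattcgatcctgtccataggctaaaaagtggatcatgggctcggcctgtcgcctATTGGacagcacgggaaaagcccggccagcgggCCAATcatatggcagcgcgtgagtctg
Lss: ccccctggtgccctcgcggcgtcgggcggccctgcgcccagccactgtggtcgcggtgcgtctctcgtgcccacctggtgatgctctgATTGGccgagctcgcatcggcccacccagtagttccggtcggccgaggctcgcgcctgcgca
In the 250 bases before the start, CCAAT on either strand was found in 16 of the 17 cholesterol genes present in the promoter table (94.1%) and in 14 of 20 lipogenesis genes (70.0%). It was also found in 6 of 6 period, cryptochrome and chrono repressors and in 3 of 4 genes of the PAR bZIP factors and Nfil3. Of the core clock activators 1 of 4 had it, and of the REV-ERB and ROR genes 1 of 3. Among the 10717 tested genes with a promoter there the share was 40.3%. CACGTG, the E-box bound by clock and SREBP factors, was found in 4 of 17 cholesterol genes (23.5%), in 4 of the 6 clock repressors and in 9.71% of tested genes. The sterol element TCACNCCAC was found in 1 of 17 cholesterol genes and in 1.3% of tested genes. A match describes these letters and is no evidence of binding.

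Genes of cholesterol synthesis and uptake lay higher in misaligned livers as a group. All 25 members tested had a positive log2 difference, with a median of 0.79 where the median of all genes tested was 0.00. In 19 of 25 (76.0%, against 5.85% of all genes) every misaligned liver was above every control liver, and in none was it the reverse. No member passed an adjusted p of 0.05 in edgeR's test on all libraries, and 14 had an unadjusted p under 0.05. Without misaligned liver 1, 22 of 25 (88.0%) were higher without overlap, where the share of all genes was 13.8%.

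Along the pathway, Hmgcs1, which makes HMG-CoA, had 151, 249 and 228 CPM in misaligned livers, against 113, 142 and 92.7 CPM in control livers (log2 difference 0.85 ± 0.31 SE). Pmvk, phosphomevalonate kinase, had 60.1, 51.7 and 54.2 CPM in misaligned livers and 33.8, 27.8 and 20.1 CPM in control livers. Fdps, farnesyl diphosphate synthase, had 130, 141 and 221 CPM in misaligned livers and 85.8, 101 and 58.0 CPM in control livers, and Idi1, isopentenyl diphosphate isomerase, was also without overlap, at 13.5 to 20.3 CPM in misaligned and 8.0 to 11.8 CPM in control livers.

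In the sterol branch, Sqle, the squalene epoxidase, had 15.8, 26.7 and 40.7 CPM in misaligned livers and 3.88, 13.2 and 6.72 CPM in control livers (log2 difference 1.80 ± 0.89 SE). Lss had 41.6, 59.8 and 62.4 CPM in misaligned livers and 30.4, 27.6 and 23.6 CPM in control livers. Cyp51, the lanosterol demethylase, had 49.2, 77.8 and 105 CPM in misaligned livers and 36, 40.6 and 25.6 CPM in control livers (log2 difference 1.18 ± 0.41 SE). In all of these genes misaligned liver 1 was the lowest of the misaligned livers and still above the controls. Nsdhl, a sterol dehydrogenase, ranged from 47.8 to 86.0 CPM in misaligned livers and from 26.5 to 39.2 CPM in control livers, and Sc5d, the lathosterol desaturase, from 440 to 796 CPM in misaligned livers and from 298 to 424 CPM in control livers. Some members overlapped. Msmo1, the sterol-C4-methyl oxidase, and Stard4, a sterol carrier, had values in misaligned liver 1 below the highest control.

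The feedback regulator Insig1 lay the same way. Insig1, a target of SREBP that restrains its processing, had 189, 328 and 347 CPM in misaligned livers, against 108, 124 and 133 CPM in control livers (log2 difference 1.24 ± 0.42 SE). The transcript of Srebf2, which encodes SREBP2 itself, overlapped, with 35.5, 46.1 and 32.0 CPM in misaligned livers and 31.9, 35.9 and 31.0 CPM in control livers.

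**Figure D2:**
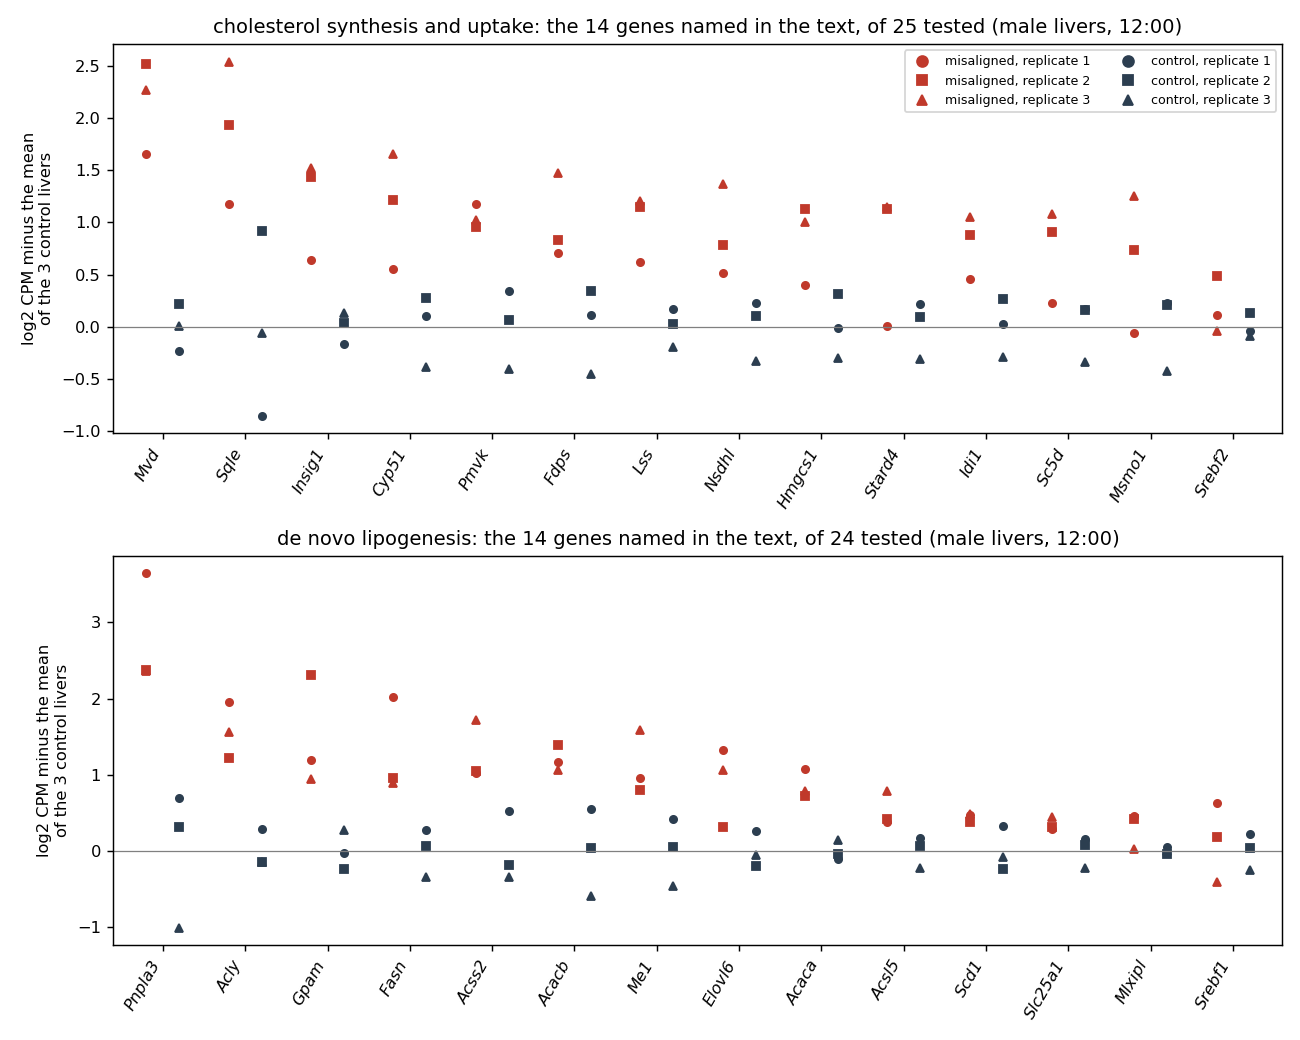
Log2 CPM of each liver minus the mean of the 3 control livers for the 14 genes of cholesterol synthesis and uptake (upper panel, of 25 tested) and the 14 of de novo lipogenesis (lower panel, of 24 tested) named in the text, ordered by log2 difference. Misaligned livers are drawn left of control livers for each gene, with the replicate given by shape. In 11 of the 14 cholesterol genes and 12 of the 14 lipogenesis genes shown the misaligned points all lie above the control points.

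Genes of de novo lipogenesis also lay higher in misaligned livers as a group. Of 24 members tested, 23 had a positive log2 difference, with a median of 0.48, and 16 (66.7%) were higher in every misaligned liver than in any control liver. None was lower without overlap. None passed an adjusted p of 0.05 in edgeR's test on all libraries, and 3 of the 24 had an unadjusted p under 0.05. Without misaligned liver 1 the count without overlap was again 16 higher, with 1 lower. The share of all genes was then 13.8% higher and 14.3% lower, in place of 5.85% and 6.28% with all 6 livers.

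Fasn, fatty acid synthase, had 4470, 2140 and 2040 CPM in misaligned livers, against 1330, 1150 and 867 CPM in control livers (log2 difference 1.37 ± 0.80 SE). Misaligned liver 1 was the highest in Fasn, as in Acly and Acaca, whereas it was the lowest misaligned liver in Mvd and most other sterol genes. Acacb, which makes the malonyl-CoA that restrains fatty acid oxidation, had 336, 391 and 314 CPM in misaligned livers and 220, 154 and 99.3 CPM in control livers. Me1, malic enzyme and a source of NADPH, had 605, 542 and 940 CPM in misaligned livers and 416, 322 and 226 CPM in control livers. Acss2, the cytosolic acetyl-CoA synthetase, had 327, 332 and 531 CPM in misaligned livers and 232, 142 and 127 CPM in control livers. None of these genes overlapped between the groups.

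Elovl6, which elongates palmitate, had 602, 298 and 501 CPM in misaligned livers and 288, 209 and 233 CPM in control livers. Scd1, the main hepatic stearoyl-CoA desaturase, had 51900, 48600 and 52400 CPM in misaligned livers and 46800, 31600 and 35300 CPM in control livers (log2 difference 0.43 ± 0.41 SE). Gpam, which starts glycerolipid synthesis, had 154, 334 and 129 CPM in misaligned livers and 66.0, 57.0 and 81.4 CPM in control livers. In this gene misaligned liver 2 was far above the other two. Pnpla3, a lipid droplet protein and a target of SREBP1c, had 28.2, 11.7 and 11.6 CPM in misaligned livers and 3.64, 2.81 and 1.12 CPM in control livers (log2 difference 2.77 ± 1.12 SE). Slc25a1, the citrate carrier, and Acsl5, an acyl-CoA synthetase, were higher without overlap at log2 differences of 0.34 ± 0.17 and 0.53 ± 0.25 (SE). The regulators overlapped. Srebf1 had 758, 554 and 366 CPM in misaligned livers and 569, 502 and 409 CPM in control livers, and Mlxipl, the gene of ChREBP, had 272, 264 and 201 CPM in misaligned livers and 204, 192 and 197 CPM in control livers.

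Reads in introns, which come from transcripts not yet spliced, were counted in a separate table and tested for 11293 genes, of which edgeR called 0 at an adjusted p of 0.05 and 327 (2.9%) had an unadjusted p under 0.05. Of the cholesterol genes, 14 of 25 were higher in introns without overlap, with a median log2 difference of 0.76, and of the lipogenesis genes 9 of 24, with a median of 0.65. The background share was 4.64% higher without overlap. Scaled to the intron counts of each library, introns of Mvd had 22.4, 24.8 and 27.4 CPM in misaligned livers, against 5.82, 5.78 and 3.36 CPM in control livers. Introns of Insig1 had 116, 140 and 91.9 CPM in misaligned livers and 31.4, 45.1 and 63.8 CPM in control livers. Introns of Pnpla3 had 514, 186 and 205 CPM in misaligned livers and 55.8, 54.3 and 32.4 CPM in control livers. In all 3 genes the groups were apart in introns too. Among the other genes named from the 6-library fit, introns of Acly, Acaca, Pnpla5 and Gm33543 were also apart, and those of Pgd, Cyp7a1 and Hsd17b6 overlapped. Introns of Cyp7a1 had 7.84, 32.7 and 17.9 CPM in misaligned livers and 34.9, 27.8 and 44.7 CPM in control livers. The intron counts and the gene counts come from the same libraries and are not independent samples.

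Across the male clock times the cholesterol list had median log2 differences of -0.37, 0.14, 0.21, 0.79, 0.13 and 0.85 at 0, 4, 8, 12, 16 and 20 h. The number of its 25 genes higher without overlap was 0, 1, 8, 19, 0 and 12 at those times, where the share of all genes was 4.35%, 2.89%, 8.42%, 5.85%, 6.6% and 16.9%. The lipogenesis list had medians of -0.22, 0.13, 0.63, 0.48, -0.31 and 0.96 at the same times. Averaged over the cholesterol list, relative to the mean of the 18 control males, the misaligned livers at 12 h lay at 0.40 to 0.92 on the log2 scale (median 0.81), and the control livers at 12 h at -0.34 to 0.05 (median -0.02). For lipogenesis these ranges were 0.49 to 0.85 in misaligned and -0.29 to 0.09 in control livers. Controls of other clock times reached into these misaligned ranges. For the cholesterol list single control livers lay at 0.66 and 0.47 at 0 h, at 0.58 at 4 h and at 0.64 at 16 h. For lipogenesis they lay at 0.50 at 0 h and 0.64 at 4 h, and a control liver of 16 h, at 1.21, was above all misaligned livers of 12 h. A test of whether the misaligned difference at 12 h was unlike the mean difference at the other 5 times called 0 genes in edgeR, with 498 (3.31%) at an unadjusted p under 0.05. Mvd differed by 2.10 ± 0.75 in this contrast and Insig1 by 1.07 ± 0.46, each with an adjusted p of 1.0 in edgeR.

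**Figure D3:**
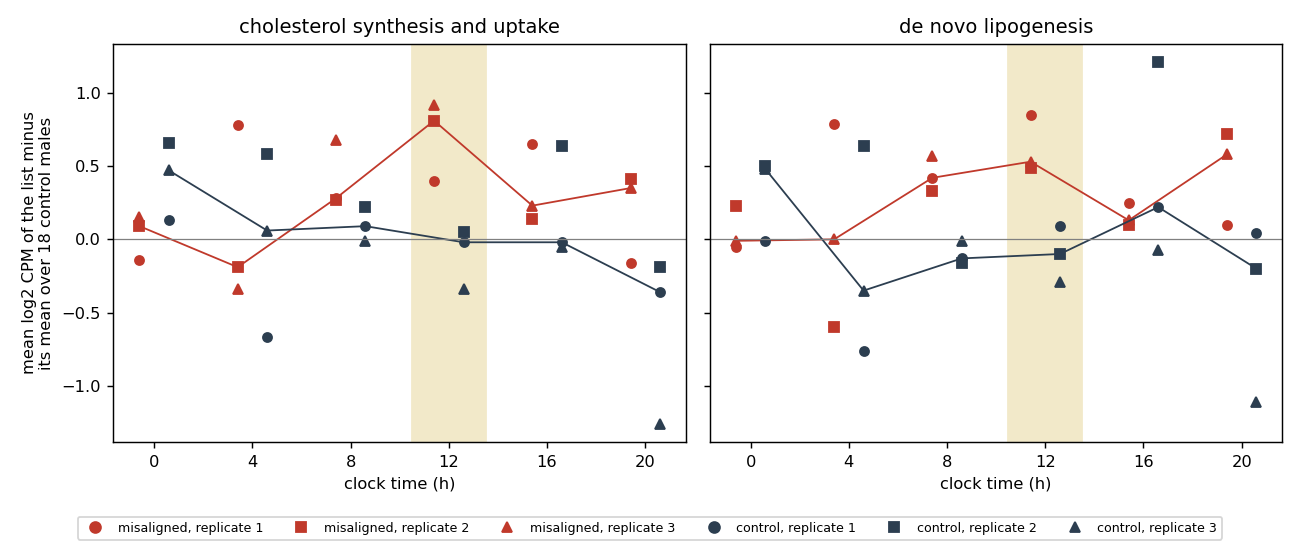
Mean log2 CPM of the cholesterol list (left) and the lipogenesis list (right) in each male liver, minus the list's mean over the 18 control males, against clock time in hours. Points are livers, misaligned drawn left of control at each time, lines join the group medians, and the shaded band marks 12 h. At 12 h the misaligned livers lie at 0.40 to 0.92 and the control livers at -0.34 to 0.05 for the cholesterol list.

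In females at 12:00 the cholesterol list had a median log2 difference of 0.20, with 1 gene higher and 1 lower without overlap. The lipogenesis list had a median of 0.60 with 1 gene higher, where 5.64% of all genes were higher and 4.29% lower without overlap. Such counts also depend on the spread within groups. For lipogenesis the median standard deviation of log2 levels was 0.366 in misaligned and 0.251 in control males at 12:00, where the median of the 24 groups was 0.544. For the cholesterol list it was 0.321 and 0.278, where the median of the 24 groups was 0.426. The difference between the male and the female difference was tested for every gene, and edgeR called 0, with 457 genes (3.03%) at an unadjusted p under 0.05. For Mvd the male minus female difference was 1.82 ± 0.94 and for Insig1 1.16 ± 0.59, each with an adjusted p of 1.0 in edgeR. For Cyp7a1 it was -0.25 ± 1.01. Cyp7a1 lay at 39.6 to 89.9 CPM in misaligned females and at 96.7 to 195 CPM in control females.

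Of the 28 genes of bile acid and sterol metabolism that were tested, 1 was higher and 3 were lower without overlap, with a median log2 difference of 0.05. The shares of all genes were 5.85% higher and 6.28% lower. Cyp7a1 was the member that fell in the 6-library fit. Scarb1, the HDL receptor, had 134, 150 and 112 CPM in misaligned livers and 174, 176 and 167 CPM in control livers. Klb, the coreceptor through which FGF15 acts on the liver, had 13.6, 24.2 and 17.9 CPM in misaligned livers and 12.6, 12.1 and 13.3 CPM in control livers, and Nr0b2 (SHP, a repressor of Cyp7a1) had 18.6, 24.4 and 14.0 CPM in misaligned livers and 5.29, 8.36 and 14.4 CPM in control livers. Klb did not overlap and Nr0b2 did. Cyp8b1, which sets the share of cholic acid, overlapped at 324 to 558 CPM in misaligned and 316 to 387 CPM in control livers.

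The clock genes differed widely among the misaligned livers. Nr1d1 (chr11:98767932-98775333, minus strand) had 9.75, 99.0 and 65.5 CPM in misaligned livers 1, 2 and 3, against 18.8, 19.4 and 15.6 CPM in control livers. Misaligned liver 1 was below all controls and misaligned livers 2 and 3 were above them. Dbp (chr7:45705088-45710203, plus strand) had 14.0, 102 and 84.7 CPM in misaligned livers and 59.3, 46.2 and 24.1 CPM in control livers, the same arrangement. Arntl (chr7:113207465-113314126, plus strand) had 8.51, 2.62 and 1.55 CPM in misaligned livers and 2.40, 2.09 and 6.80 CPM in control livers, with misaligned liver 1 the highest of the 6. Intron counts ran the same way, with 31.4, 378 and 344 intron CPM for Dbp in misaligned livers, against 102, 111 and 39.1 intron CPM in control livers.

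Cry1, a cryptochrome repressor, had 20.8, 4.99 and 6.12 CPM in misaligned livers and 8.27, 11.6 and 17.9 CPM in control livers. Per2 had 68.2, 33.9 and 34.1 CPM in misaligned livers and 47.1, 44.3 and 48.9 CPM in control livers. In both genes misaligned liver 1 lay above all controls and misaligned livers 2 and 3 below them. Nfil3, a repressor at the sites of the PAR bZIP factors, had 25, 12.5 and 9.83 CPM in misaligned livers and 11.2, 14.8 and 26.9 CPM in control livers. Per3 (23.2 to 45.3 CPM in misaligned livers and 28.8 to 34.2 CPM in control livers) and Nr1d2 (33.9 to 84.7 CPM in misaligned livers and 58.4 to 65.4 CPM in control livers) had misaligned values on both sides of the controls, as did Tef, at 123 to 202 CPM in misaligned and 151 to 182 CPM in control livers.

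Among the 20 clock genes tested, Hlf alone had groups that did not overlap, with 52.8, 48 and 52.0 CPM in misaligned livers and 67.4, 68.5 and 67.6 CPM in control livers (log2 difference -0.41 ± 0.18 SE). Nr1d1 (1.70 ± 0.69 SE) and Bhlhe41 (1.73 ± 0.71 SE), a repressor of the DEC family, had the largest log2 differences, and in both the misaligned livers lay on both sides of the controls. No clock gene passed an adjusted p of 0.05 in edgeR's test on all libraries. Other members were Clock (-0.27 ± 0.17), Npas2 (0.70 ± 1.46), Arntl2 (-0.28 ± 0.55), Per1 (-0.02 ± 0.49), Cry2 (0.23 ± 0.22), Ciart (-0.20 ± 0.62), Bhlhe40 (0.22 ± 0.36) and Rora (0.21 ± 0.21), each as a log2 difference ± SE with overlapping groups. Without misaligned liver 1 the difference of Nr1d1 was 2.20, that of Dbp 1.11, that of Cry1 -1.18 and that of Arntl -0.84. For Arntl that is the opposite direction to the 0.17 of all 3 livers. Misaligned liver 1 was set apart by these same genes, so the larger differences without it follow from that choice. The median standard deviation of log2 levels was 0.726 in misaligned and 0.151 in control livers for the 4 activators, 0.533 in misaligned and 0.162 in control livers for the 8 repressors, 0.8 and 0.197 for the 4 REV-ERB and ROR genes, and 0.527 and 0.387 for the 4 genes of the PAR bZIP factors and Nfil3. The control values of the activators and repressors were the lowest of the 24 groups of the series, whose median was 0.325 for the activators and 0.421 for the repressors and whose highest was 1.265 and 0.952. For the cholesterol list it was 0.321 in misaligned and 0.278 in control livers.

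A molecular time was read for each liver by fitting its clock genes to the curves of the control males over 24 h, each control being read against curves fitted without it, with the 14 clock genes that were rhythmic in control males. The misaligned livers read 13.88, 6.17 and 7.02 h, and the control livers read 9.66, 11.22 and 12.68 h, where the clock time was 12 h for all. The offset from clock time was 1.88, -5.83 and -4.98 h in misaligned livers 1, 2 and 3, so misaligned livers 2 and 3 read early and misaligned liver 1 read late. Over the 18 control males of all clock times the offset ranged from -2.34 to 2.12 h. Misaligned liver 1 lay inside that range, and misaligned livers 2 and 3 lay outside it. The mean offset differed by -2.17 h between misaligned and control livers (2-sided exact permutation test over the 6 livers, p = 0.5, where 0.1 is the smallest p possible). Without misaligned liver 1, which was set apart by these same clock genes, the difference was -4.60 h. Without misaligned liver 2 it was -0.74 h, and without misaligned liver 3 it was -1.17 h.

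**Figure D4:**
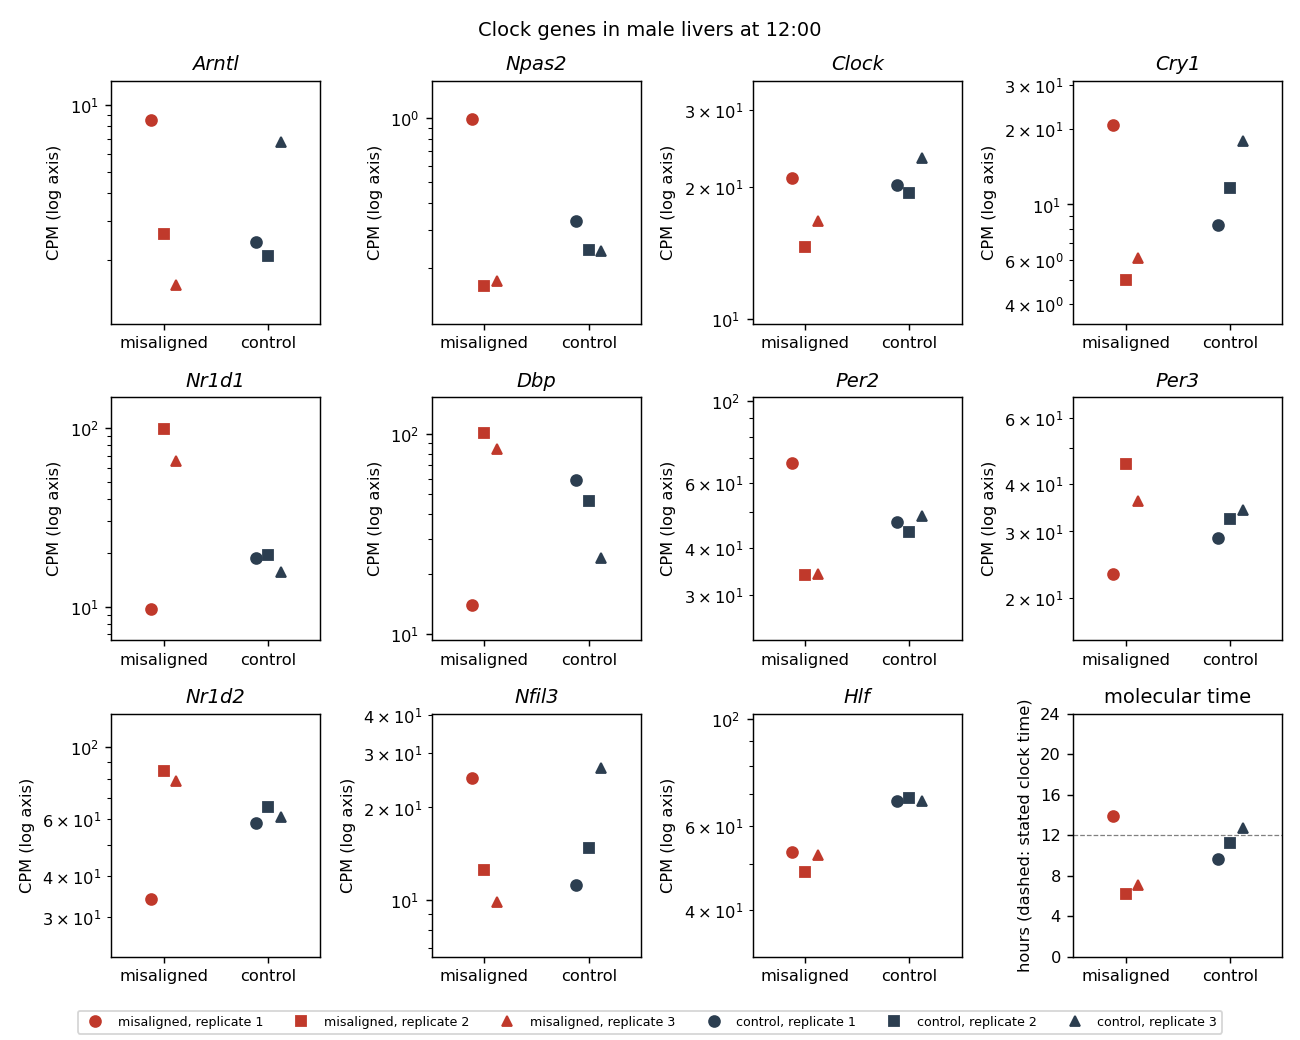
Levels in CPM (log axes) of 11 clock genes in the misaligned (left) and control (right) livers, and in the last panel the molecular time of each liver in hours, with a dashed line at the stated clock time. The replicate is given by shape. Misaligned liver 1 lies on the opposite side of the controls from misaligned livers 2 and 3 in Nr1d1, Dbp, Cry1 and Per2.

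Of 36 clock output genes tested, 2 were higher and 6 were lower in misaligned livers without overlap, with a median log2 difference of -0.10. The shares of all genes were 5.85% higher and 6.28% lower. Tubb2a, a tubulin, had 598, 446 and 370 CPM in misaligned livers and 241, 250 and 120 CPM in control livers, and Insig2, the second INSIG gene, had 391, 371 and 394 CPM in misaligned livers and 275, 281 and 337 CPM in control livers. Usp2, a deubiquitinase, had 34.0, 29.2 and 44.6 CPM in misaligned livers and 57.7, 58.7 and 48.9 CPM in control livers. Alas1, the rate-limiting enzyme of heme synthesis, had 644, 661 and 436 CPM in misaligned livers and 1110, 905 and 716 CPM in control livers. Nampt (NAD salvage), Por (the electron donor of the cytochromes P450), Cpt1a (mitochondrial fatty acid entry) and Mthfd1l (mitochondrial folate metabolism) were the others lower, at log2 differences of -0.33, -0.40, -0.33 and -0.85. Cdkn1a, the inhibitor of cyclin-dependent kinases, followed the split of the clock genes, with 97.6, 13.1 and 16.5 CPM in misaligned livers and 31.2, 45.5 and 67.2 CPM in control livers.

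Of 33 proteasome subunits, 12 (36.4%) were higher without overlap and none lower, with a median log2 difference of 0.14. Psmd4, a ubiquitin receptor of the proteasome, had 101, 106 and 110 CPM in misaligned livers and 92.8, 86.3 and 82.3 CPM in control livers. Scaled by total counts, 7 of 33 (21.2%) were higher without overlap, where 3.37% of all genes were. Without misaligned liver 1, 2 or 3 the number higher was 15, 14 or 12, and the number lower 0, 0 or 3. The share of all genes higher was then 13.8%, 9.47% or 13.5%, and the share lower 14.3%, 9.64% or 13.3%. Of 35 genes of the unfolded protein response, 11 (31.4%) were higher and 1 was lower, with a median of 0.22. Without misaligned liver 1, 24 (68.6%) were higher and 2 lower, where 13.8% of all genes were higher and 14.3% lower. With all 6 livers these shares of all genes were 5.85% and 6.28%. Without misaligned liver 2 the number higher was 11 (31.4%), and without misaligned liver 3 it was 12 (34.3%). The share of all genes higher was then 9.47% and 13.5%. Scaled by total counts, 8 (22.9%) of these genes were higher. Hspa5 (BiP, the main chaperone of the endoplasmic reticulum) had 477, 494 and 615 CPM in misaligned livers and 358, 394 and 431 CPM in control livers. Hyou1, another chaperone there, had 98.1, 103 and 105 CPM in misaligned livers and 61.7, 70.3 and 79.5 CPM in control livers, and Atf4, a stress transcription factor, had 84.3, 93.8 and 94.7 CPM in misaligned livers and 75.2, 71.2 and 69.0 CPM in control livers. No member of either list passed an adjusted p of 0.05 in edgeR.

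Acute phase genes lay lower, with 8 of 31 (25.8%) lower without overlap, none higher and a median log2 difference of -0.20. The shares of all genes were 5.85% higher and 6.28% lower. Without misaligned liver 1 the number lower was 15 (48.4%), where 14.3% of all genes were lower. Without misaligned liver 2 it was 9 (29.0%, with 1 gene higher), and without misaligned liver 3 it was 11 (35.5%). The share of all genes lower was then 9.64% and 13.3%. Saa4, a constitutive serum amyloid A, had 194, 192 and 201 CPM in misaligned livers and 317, 230 and 335 CPM in control livers, and Il6ra, the interleukin 6 receptor, had 36.9, 16.5 and 23.7 CPM in misaligned livers and 44.3, 41.6 and 60.6 CPM in control livers. In both genes all misaligned livers were below all controls. Of 24 glucocorticoid genes, 3 were lower and none higher, with a median of -0.22, and scaled by total counts 6 were lower. The metallothioneins Mt1 and Mt2, which bind zinc, were among the lower members, with Mt1 at 43.0, 24.6 and 16.1 CPM in misaligned livers and 69.7, 47.2 and 48.7 CPM in control livers, and Mt2 at 18.7, 13.4 and 6.9 CPM in misaligned livers and 42.4, 23.4 and 22.4 CPM in control livers.

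In glucose metabolism, 3 of 15 gluconeogenesis genes were lower without overlap and none higher (median -0.19). In glycolysis and glycogen, 6 of 30 genes were higher and none lower (median 0.17). For these and the lists that follow, the shares of all genes were 5.85% higher and 6.28% lower. Pck1, which commits carbon to gluconeogenesis, had 1510, 1650 and 1460 CPM in misaligned livers and 1870, 2110 and 2660 CPM in control livers. G6pc, the glucose-6-phosphatase, had 491, 192 and 497 CPM in misaligned livers and 742, 549 and 589 CPM in control livers. Both lay below the controls in all 3 misaligned livers. Of 40 targets of PPAR alpha and fasting, 2 were lower and none higher (median 0.06), and of 40 interferon and antigen processing genes 1 was lower and none higher (median -0.01). Of 58 xenobiotic receptors and cytochromes, 7 were higher and 6 were lower without overlap, with a median of 0.09.

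**Figure D5:**
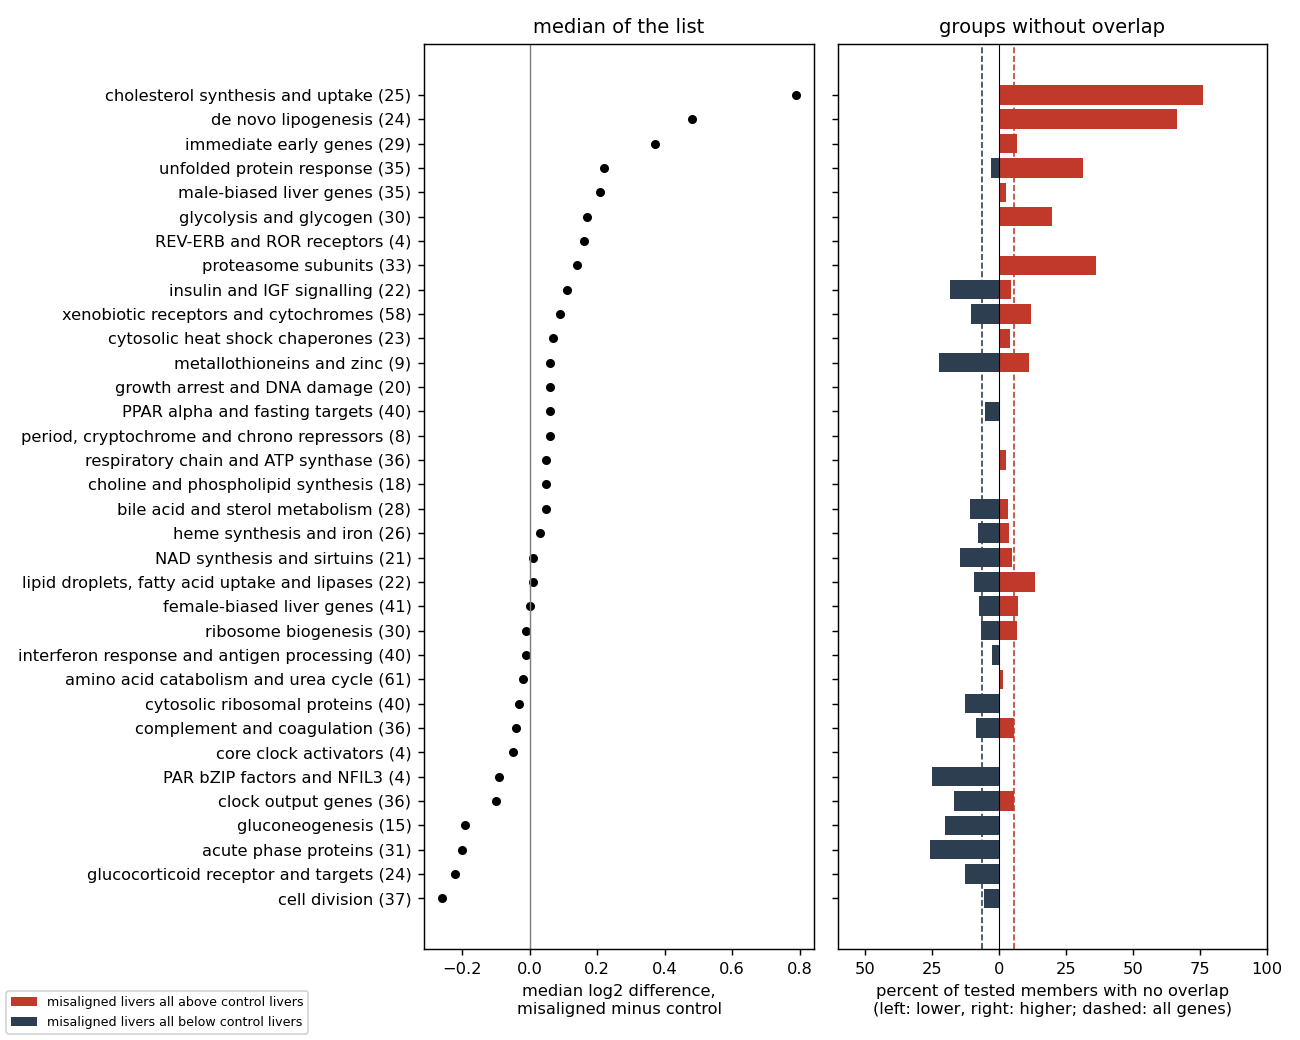
The 34 gene lists ordered by median log2 difference, misaligned minus control (left panel, number tested in brackets, grey line at the median of all genes), with the percent of tested members whose groups did not overlap (right panel, higher in misaligned livers to the right, lower to the left, dashed lines at 5.85% and 6.28% of all genes). Cholesterol synthesis and uptake reaches 76.0% and de novo lipogenesis 66.7%.

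Markers of other cell types were read because whole liver was sequenced, and in bulk RNA fewer cells of a type and less RNA per cell cannot be told apart. The 12 hepatocyte markers summed to 86700 to 108000 CPM in misaligned livers and 96000 to 102000 CPM in control livers. The 13 stellate and matrix markers summed to 630 to 775 CPM in misaligned livers and 823 to 1050 CPM in control livers, with 3 lower without overlap. Dcn, the matrix proteoglycan decorin, had 267, 225 and 299 CPM in misaligned livers and 334, 421 and 379 CPM in control livers, and Lum, lumican, had 21.7, 10.2 and 18 CPM in misaligned livers and 24.5, 44.7 and 32.7 CPM in control livers. The 10 endothelial markers summed to 398 to 435 CPM in misaligned livers and 385 to 391 CPM in control livers, with 2 higher without overlap. The 14 Kupffer cell markers summed to 740 to 1050 CPM in misaligned livers and 903 to 1230 CPM in control livers, and the 15 lymphocyte markers to 56.2 to 96.9 CPM in misaligned livers and 67.7 to 119 CPM in control livers. Blood cell, cholangiocyte, adipocyte and acinar markers also had sums that overlapped between the groups. Of these lists, 2 of 14 Kupffer, 4 of 15 lymphocyte and 2 of 15 blood cell markers were lower without overlap. For all marker lists the shares of all genes were 5.85% higher and 6.28% lower. The adipocyte markers Adipoq, Lep and Plin1 and the acinar markers Prss2, Cela3b, Cpa1 and Ctrb1 were at 0. The part of the stellate and endothelial markers in the results above was not tested. The 10 perivenous markers had a median log2 difference of 0.38, with 2 higher without overlap. Glul, glutamine synthetase, had 1530, 1870 and 1990 CPM in misaligned livers and 1380, 1390 and 1180 CPM in control livers. The perivenous sums overlapped, at 7640 to 12800 CPM in misaligned livers and 9960 to 10400 CPM in control livers. The 10 periportal markers had a median of -0.14, with 1 lower without overlap, and their sums overlapped too.

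The genes with the smallest p in edgeR's test on all libraries belonged to none of these lists. Amd2, an S-adenosylmethionine decarboxylase gene with a close copy in the genome that could share its reads, had 0.165, 0.0819 and 0.431 CPM in misaligned livers, against 1.32, 0.884 and 1.52 CPM in control livers (log2 difference -2.42 ± 0.56 SE, unadjusted p = 7.06e-05, edgeR adjusted p = 1.0). In the authors' other deposited count table, named MAX, its log2 difference was -0.24 (unadjusted p = 0.201 in edgeR). Kptn, a subunit of a complex that restrains mTORC1, had 17.3, 17.7 and 17.8 CPM in misaligned livers and 11.2, 12.2 and 12.5 CPM in control livers (log2 difference 0.56 ± 0.14 SE). Kptn values were close within each group and did not overlap. Atg16l2, related to the autophagy protein ATG16L1, had 19.1, 27.0 and 32.8 CPM in misaligned livers and 15, 12.4 and 12.1 CPM in control livers (log2 difference 1.00 ± 0.26 SE). Tubb4b, a tubulin with near copies, had 144, 124 and 121 CPM in misaligned livers and 85.0, 71.6 and 61.3 CPM in control livers, and Nav2, a neuron navigator protein, had 34.8, 102 and 46.5 CPM in misaligned livers and 34.1, 32.7 and 29.0 CPM in control livers. Rbm41, an RNA-binding protein gene at under 1 CPM in every liver, had 0.826, 0.491 and 0.69 CPM in misaligned livers and 0.0827, 0.241 and 0.16 CPM in control livers. Also among the 10 with the smallest p were Mapk15, Ick and Trabd, with log2 differences of 1.16 ± 0.32, 0.46 ± 0.14 and 0.54 ± 0.16 (SE). None of the 10 passed the adjusted threshold in edgeR.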

How the data were processed

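Whole liver poly(A) RNA was sequenced by the authors, aligned with STAR 2.6.0c to GRCm38 per the submitters' processing notes, and deposited as tables of whole-number read counts per gene and per intron on each strand. The counter and the annotation are not given in the sources used here. Library totals were nearly equal across the series, and whether reads were drawn to a common number is not given in the sources used here. The sense gene counts of the MIN table were used, with the MAX table as an alternative. Every column matched a label, with 0 left over. Groups came from the sample labels.

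Counts were filtered with edgeR's filterByExpr over 24 groups, scaled with TMM and fitted with edgeR 4.0.16 in R 4.3.3 (robust quasi-likelihood test, 1 mean per group, 48 residual degrees of freedom), adjusted by Benjamini-Hochberg over all 15066 genes, with a threshold of 0.05. Intron counts were summed per gene and fitted alike. limma 3.58.1 and DESeq2 1.42.0 were alternatives, as were other scalings, filters, sets of libraries, and leaving out each library. The code was tested on simulated data.

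The members and the 34 gene and 11 cell type lists were chosen with earlier results of these data known. Genes were named by rule (the 10 with the smallest p, all clock and clock output genes, up to 4 per other list), and some enzymes and markers outside it were chosen after their values were seen, as were the promoter motifs. A few genes that the rule names are not reported here. List members absent from the table (Ccrn4l, Gm129, Crld2, Fsp27, Cml4, C5, Atp5o, Prss1, Pnlip, Amy2a5, Try4 and Clps) were not analysed here. Positions are from GENCODE vM21 (GRCm38). Genes kept by the filter through only 1 group had to differ, so counts over tested members describe these livers only.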

Additional observations from a re-analysis of the deposited data

How the results depend on the processing

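The count of 0 genes held with limma-voom, with DESeq2, under either other scaling, without a filter or with a mean of at least 5 CPM, with MAX counts, in the 36 male libraries alone and with each of the 6 livers left out (range 0 to 0). The settings run on the 6 libraries alone moved it, to 9 with edgeR, 9 with RLE size factors, 5 with total counts, 8 with MAX counts, 4 with limma-voom and 58 with DESeq2, and to 0 to 60 with a liver left out. With all 6 libraries those fits take the spread from 4 residual degrees of freedom in place of 48, and with a liver left out from fewer. Apart from the edgeR fit of the 6 libraries and its block, they were added after seeing the data, as were the counts of list members under other settings. The 2 contrasts with females and with the other clock times stayed at 0 genes under every alternative run. Unfiltered intron counts gave 20 genes, and the cause was not tested.

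Replicate numbers did not pair the livers. The deviations of same-numbered livers from their group means correlated at -0.13, -0.10 and -0.05, and no misaligned liver correlated best with its own number. With the number as a replicate block the count was 0 over all libraries and 16 in the 6 libraries alone, of which 7 were among the 9, without Acaca and Pgd.

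Over 87 genes named in the text, 3 values in 2 genes reversed under other settings. They were Nr1d2 at -0.01 with limma-voom in both sets of libraries and Tef at 0.00 in the male libraries alone. With a liver left out, 12 genes reversed in some fit, ranging over -0.85 to 0.92 for Arntl, -0.65 to 1.09 for Npas2, -0.13 to 0.09 for Per1, -0.47 to 0.13 for Per2, -0.10 to 0.36 for Per3, -1.19 to 0.10 for Cry1, -0.75 to 0.07 for Ciart, -0.13 to 0.41 for Nr1d2, -0.19 to 0.16 for Tef, -0.67 to 0.28 for Nfil3, -1.71 to 0.25 for Cdkn1a and -0.11 to 0.41 for Srebf1. The genes of cholesterol synthesis named above reversed in none of these fits. The cholesterol count higher without overlap was 18 with total counts and 17 with MAX counts, and the lipogenesis count 15 with each. The share of all genes was 3.37% with total counts and 3.55% with MAX counts. The difference in molecular time ranged from -4.60 to -0.74 h with a liver left out and was -2.12 h with all 20 clock genes. Low levels, such as those of Amd2, Rbm41 and Npas2, rest on few counts.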
